A study of Mus musculus with 6 samples.

Results

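The type I interferon response genes are the transcripts that cells switch on when an interferon binds its receptor. A list of 37 such genes was followed here by name in bone marrow erythroblasts, and 35 of the 37 had a probe set of their own on the array, among 18193 genes measured in all. Isg15 shares its probe set with another gene and Ifi44 was not found under that symbol, so neither has a value here. The 35 genes were covered by 58 probe sets, with 1 probe set for 21 genes and several for 14. Each gene was read from its probe set with the highest mean over the arrays.

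The study set 3 mice labelled miR-144/451 knockout (KO), with the title numbers 493, 548 and 551, against 3 wild-type mice (WT), with the numbers 497, 504 and 550. Cells positive for the erythroid marker Ter119 and the transferrin receptor CD71, with a large cell size by forward scatter, were sorted from fresh bone marrow, and the RNA of each mouse went to 1 Affymetrix Mouse Genome 430 2.0 array. The comparison asks which transcripts differ when both microRNAs are missing. How the deletion was made, and the strain, age and sex of the mice, are not given in the sources used here. The deleted locus makes the 3 mature microRNAs, printed next because the genotype label names their loss. Other genetic differences between the groups cannot be told apart from it. Sequences are RefSeq's on build GRCm38.p6, with the seed, bases 2 to 8, in capitals.
mmu-miR-144-5p, chr11:78073010-78073032, plus strand: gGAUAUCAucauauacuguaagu
mmu-miR-144-3p, chr11:78073047-78073066, plus strand: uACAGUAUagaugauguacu
mmu-miR-451a, chr11:78073186-78073207, plus strand: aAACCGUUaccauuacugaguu
The 3 seeds differ from one another, and the microRNAs themselves were not analysed here.

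Interferon alpha and beta bind the receptor made of IFNAR1 and IFNAR2. The kinases JAK1 and TYK2 then act on STAT2, which joins IRF9 in the complex ISGF3 and binds interferon-stimulated response elements (ISRE) before its target genes. Many of these targets also respond to interferon gamma, through GAS sites and through IRF1. The targets sense foreign RNA, degrade it, block viral entry or budding, and brake the signal. Some are transcribed at a low level in cells that have met no infection.

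The deposited values were returned to the log2 scale, on which 1 unit is a 2-fold change, and differences are KO minus WT. Array medians were 5.73 to 5.78 in WT and 5.62 to 5.68 in KO, and the 25th percentiles 4.30 to 4.40.

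No interferon response gene passed the test over the whole array. With limma, a linear model with a moderated variance, and Benjamini-Hochberg adjustment over 45037 probe sets, 0 of 35 genes were called higher and 0 lower at an adjusted p under 0.05, where 0.236% and 0.148% of all genes were called. The smallest adjusted p was 0.109, for Trim25. Before adjustment, 9 of the 35 had p under 0.05 and lower values in KO, where 12.7% of all genes did, and 2 had p under 0.05 and higher values, where 8.34% did. When the prior variance followed intensity and was fitted robustly, 2 were called, Rsad2 and Trim25, both lower, against 2.04% of all genes called lower and 2.37% higher.

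Most of the genes had lower means in KO. The difference was below 0 for 24 of 35 genes, against 56.2% of all genes, and its median was -0.24, against -0.04 over all genes. The 3 KO values lay below the 3 WT values without overlap for 10 genes, where 16.2% of all genes did so, and above them for 2, where 12.5% did. The 10 were Stat2, Irf9, Irf7, Irf1, Ddx58, Trim25, Usp18, Rsad2, Mx1 and Tap1, and the 2 were Ifih1 and Oas1a. Differences of single genes ran from -1.61 for Oasl2 to 0.91 for Oas1a.

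**Figure D1:**
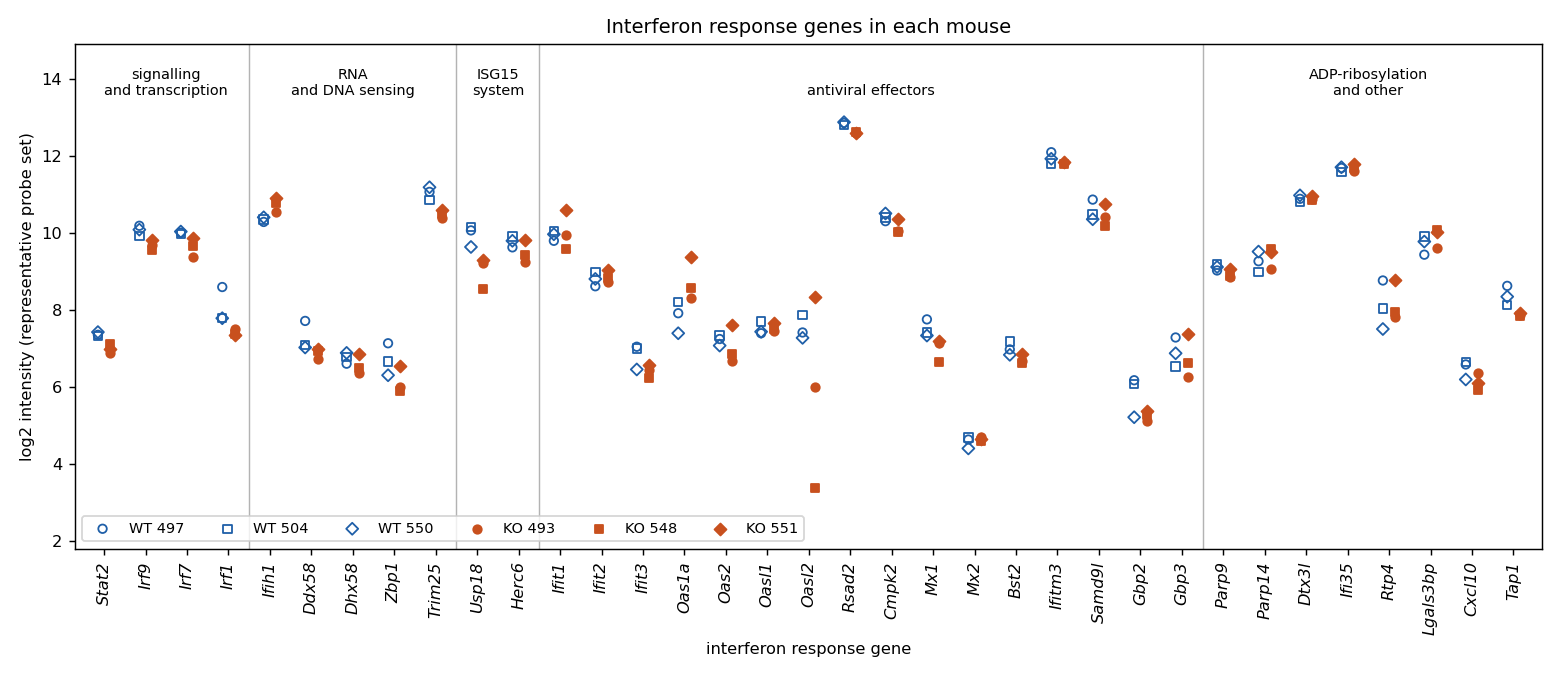
Log2 intensity of the representative probe set (vertical axis) of each measured interferon response gene (horizontal axis, in groups by role) in 3 WT mice (open blue) and 3 KO mice (filled orange), with 1 symbol per mouse. Heights compare mice within a gene, not genes with one another; the KO symbols of the 4 transcription genes lie below their WT symbols, and the KO symbols of Oasl2 spread from 3.36 to 8.34.

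**Figure D2:**
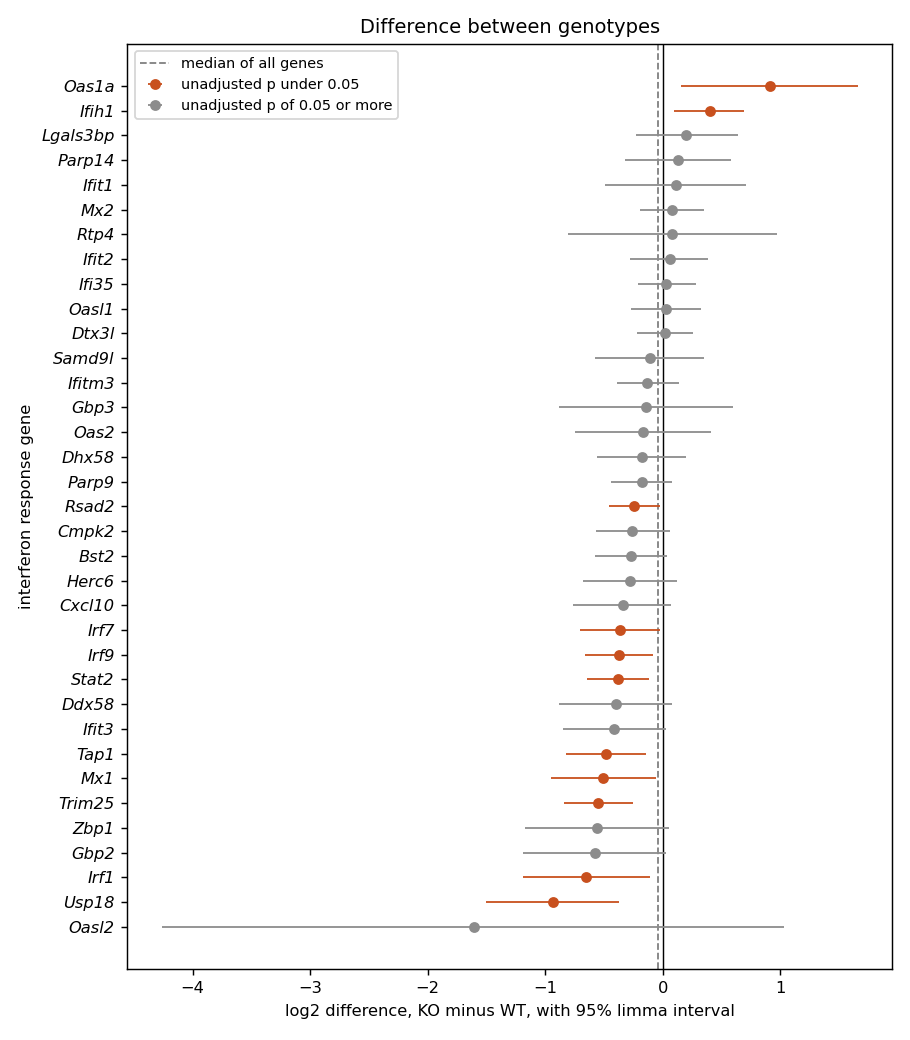
Difference between genotypes in log2 units (horizontal axis, KO mean minus WT mean) for the 35 genes (vertical axis, in order of the difference), with 95% limma intervals over 3 mice per group. The dashed line is the median of all genes, -0.04; the 11 orange points have an unadjusted p under 0.05, 9 on the left and 2 on the right, and none passed adjustment.

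Erythroid markers read high on every array: Gata1 read 12.39 to 12.48, the band 3 anion exchanger gene Slc4a1 13 to 13.12 and the CD71 gene Tfrc 12.93 to 13. Some neutrophil markers read as high, S100a9 at 13.36 to 13.45 and S100a8 at 13.16 to 13.29. These levels alone therefore do not give the purity of the sorted cells. Of 14 measured erythroid markers, Hba-a1 alone had a mean under the 25th percentile. Markers of other blood cells were measured too, and most were lower in KO, where 56.2% of all genes were lower. The summed linear intensity of 15 macrophage markers was 8680 to 9830 in KO and 10400 to 12900 in WT, with 12 of 15 lower. For 7 monocyte markers it was 6100 to 7280 against 8290 to 11200, with 7 of 7 lower, for 11 neutrophil markers 44600 to 50700 against 53400 to 58100, with 11 of 11 lower, and for 11 B cell markers 4520 to 6050 against 6280 to 11100, with 10 of 11 lower. The sums of 10 T and NK cell markers were 989 to 1300 against 1590 to 2280, with 9 of 10 lower, and those of 7 eosinophil, basophil and mast cell markers 2630 to 3050 against 3650 to 6030, with 6 of 7 lower. Plasmacytoid dendritic cell markers, 7 of 9 of them lower and 1 of them Bst2, itself an interferon response gene, summed to 2250 to 2430 in KO and 2380 to 3190 in WT, and those sums overlapped. Platelet markers, 3 of 7 lower, also overlapped, at 5880 to 7010 against 6150 to 6460. The erythroid sum itself was 62900 to 65200 in KO and 67000 to 70300 in WT, with 13 of 14 markers lower. Among the markers of other cells only Gzmb lay under the 25th percentile. The signal of the actin control was higher at its 3′ than its 5′ end by 1.82 to 1.86 in KO and 1.65 to 1.67 in WT, while the same measure for Gapdh overlapped. The part of these shifts in the interferon gene values was not tested, and in sorted bulk cells fewer cells of a type and less RNA per cell cannot be told apart.

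The transcription factors that carry the signal were lower in every KO mouse than in any WT mouse, for 4 of 4 genes, where 16.2% of all genes lay so. None of the 4 passed adjustment. Stat2, the part of ISGF3 that activates transcription, read 7.35, 7.32 and 7.42 in WT and 6.87, 7.11 and 6.97 in KO. All KO values lay under the WT range, at a difference of -0.38 ± 0.11 (SE, n = 3 per group; limma adjusted p = 0.146). Irf9, which gives ISGF3 its DNA binding, read 10.18, 9.91 and 10.08 in WT and 9.69, 9.56 and 9.81 in KO, a difference of -0.37 ± 0.12 (limma adjusted p = 0.181). The groups were apart by 0.1 at the nearest pair, WT 504 and KO 551. Irf7, the regulator that amplifies interferon alpha production, read 10, 9.96 and 10.03 in WT, a narrow range, and 9.38, 9.65 and 9.87 in KO. Its difference was -0.36 ± 0.14 (limma adjusted p = 0.229), with KO 551 the closest to WT, and -0.24 without KO 493. Irf1, a regulator shared with the interferon gamma response, read 8.59, 7.79 and 7.78 in WT and 7.50, 7.36 and 7.34 in KO. WT 497 stood above the other mice, and the difference was -0.65 ± 0.23 over all mice (limma adjusted p = 0.195) and -0.39 without WT 497. A second, dimmer probe set of Stat2 overlapped between the groups (-0.09).

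With all 6 mice limma called none of the 5 sensing genes, Trim25 among them, and the mean of Ifih1 was higher in KO while those of the other 4 were lower. Ifih1 encodes MDA5, a helicase that binds long double-stranded RNA, and read 10.28, 10.34 and 10.40 in WT and 10.54, 10.78 and 10.89 in KO. Every KO value was above every WT value, by 0.40 ± 0.12 on average (limma adjusted p = 0.165). Ddx58 encodes the related sensor RIG-I and read 7.71, 7.08 and 7.02 in WT and 6.71, 6.92 and 6.99 in KO. These groups were separated by only 0.03, and the difference was -0.40 ± 0.20 (limma adjusted p = 0.329), with an interval from -0.88 to 0.08, and -0.18 without WT 497. Dhx58, which encodes LGP2, a helicase that modulates both sensors, read 6.60, 6.78 and 6.88 in WT and 6.37, 6.49 and 6.86 in KO, so the groups overlapped through KO 551. Its 3 probe sets disagreed in sign, at -0.18, -0.36 and 0.45, and the first, which is the brightest, ran from -0.32 without KO 551 to -0.08 without KO 493. The one at 0.45 read only 3.43 to 4.33, under the 25th percentile of every array. Zbp1, a sensor of Z-form nucleic acids that can start necroptosis, was at -0.56 with an interval from -1.17 to 0.05.

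Trim25, a ubiquitin ligase that acts with RIG-I, was the member with the smallest p. It read 11.06, 10.85 and 11.18 in WT and 10.38, 10.49 and 10.58 in KO. The KO values were tight and all below WT, at -0.55 ± 0.13 (interval -0.84 to -0.25, limma adjusted p = 0.109), which is a WT level 1.46 times that of KO. Its other probe sets gave -0.74 and -0.44, each with the groups apart in the same direction. The fit with an intensity trend called it (adjusted p = 0.0205), and the adjusted p over all settings tried ran from 0.0205 to 0.244. Trim25 lies on chromosome 11, as the deleted locus does, 168 measured genes away, and on that chromosome 1.59% of genes were called in either direction, against 0.385% of all genes. Of the other members on chromosome 11, Irf1 lies 383 measured genes away on the opposite side, Dhx58 364, Ifi35 400 and Lgals3bp 654.

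The ISG15 system attaches a small ubiquitin-like protein to other proteins. Usp18, which removes ISG15 and also shuts off the receptor IFNAR2, read 10.06, 10.15 and 9.63 in WT and 9.21, 8.54 and 9.29 in KO. All KO values were below all WT values, and KO 548 was the lowest. The difference was -0.93 ± 0.24 (interval -1.50 to -0.37, limma adjusted p = 0.127), which is a WT level 1.91 times that of KO. It kept an unadjusted p under 0.05 without any 1 of the 6 mice, at -1.09 to -0.70. Herc6, the mouse ligase for ISG15, read 9.62, 9.90 and 9.79 in WT and 9.23, 9.43 and 9.80 in KO, and overlapped because KO 551 reached the WT range. Its difference was -0.28 ± 0.17 (limma adjusted p = 0.395), -0.15 without KO 493 and -0.44 without KO 551, where its unadjusted p was under 0.05. Its other probe sets were at 0.02, -0.26 and -0.24. Outside the list, Ube2l6, the enzyme that passes ISG15 to the ligase, read 10.40, 10.36 and 10.30 in WT and 9.80, 9.58 and 9.62 in KO (-0.69 ± 0.11, limma adjusted p = 0.0625), and the trend fit called it (adjusted p = 0.00649).

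Rsad2, which encodes viperin, an enzyme that makes a chain-terminating nucleotide against viral RNA synthesis, read 12.85, 12.79 and 12.87 in WT and 12.60, 12.61 and 12.59 in KO. Both groups were narrow and apart, with a difference of -0.24 ± 0.09 (limma adjusted p = 0.229; 0.0134 with the intensity trend). All 3 probe sets had every KO mouse below every WT mouse, but the size differed, at -0.24, -0.42 and -1.01 from the brightest to the dimmest. The dimmest read 9.42, 9.38 and 9.78 in WT and 8.56, 8.29 and 8.71 in KO (limma adjusted p = 0.0649). The array therefore gives a direction for Rsad2 across its probe sets and no single size. Cmpk2, a mitochondrial nucleotide kinase encoded next to Rsad2, was at -0.26 with an interval from -0.57 to 0.06, and its groups overlapped.

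**Figure D3:**
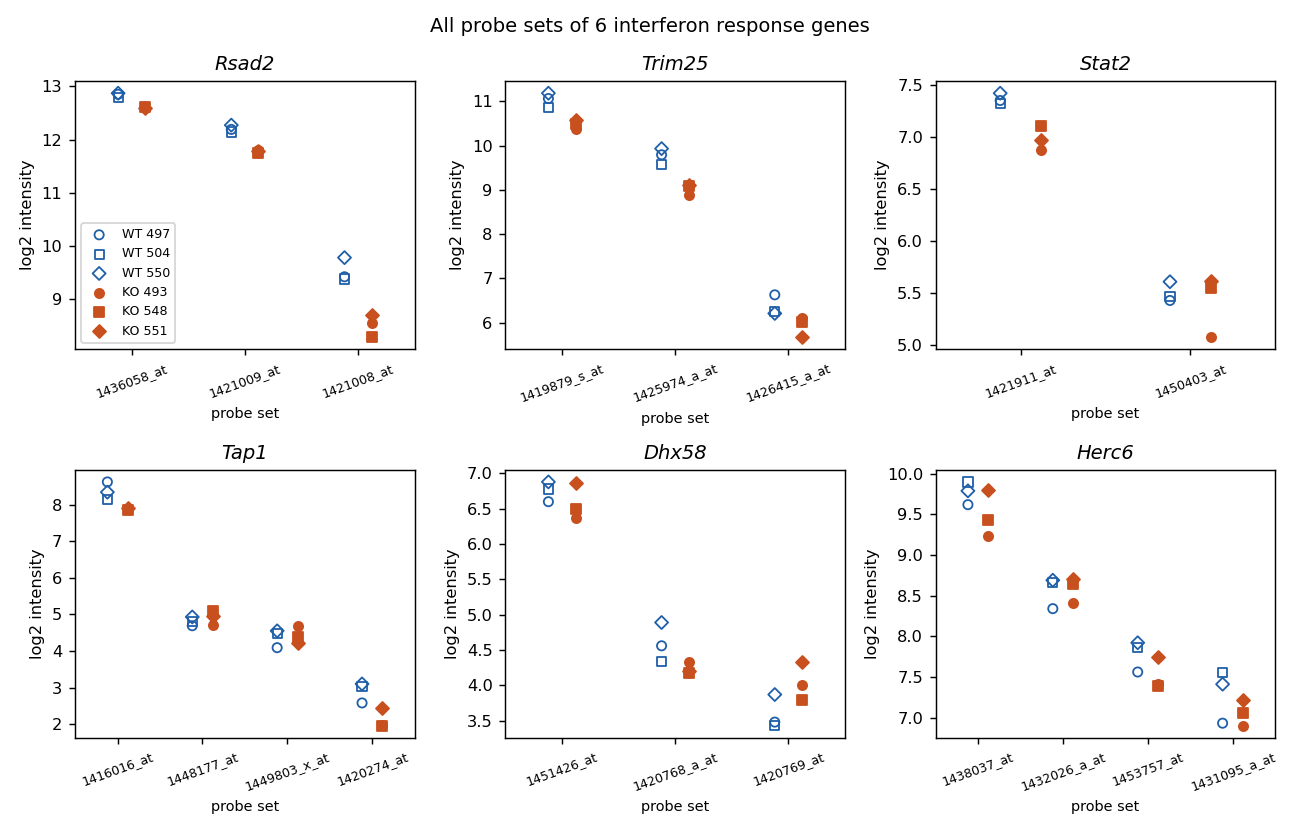
Log2 intensity (vertical axis) of every probe set (horizontal axis) of Rsad2, Trim25, Stat2, Tap1, Dhx58 and Herc6 in 3 WT mice (open blue) and 3 KO mice (filled orange). All probe sets of Rsad2 and Trim25 show the KO mice below the WT mice, while those of Dhx58 differ in sign and those of Herc6 overlap.

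The genes of the 2′-5′ oligoadenylate synthetase family are described next, and none passed adjustment. The active synthetases make 2′-5′ oligoadenylates, which activate RNase L. Oas1a read 7.91, 8.20 and 7.39 in WT and 8.30, 8.57 and 9.36 in KO. Every KO value was above every WT value, with KO 551 the highest, at 0.91 ± 0.32 (interval 0.16 to 1.66, limma adjusted p = 0.194). Without KO 551 the difference was 0.60, a change of over 1.5 times. Oas2 read 7.24, 7.33 and 7.07 in WT and 6.68, 6.85 and 7.61 in KO, so KO mice lay on both sides of WT (-0.17 ± 0.24). Oasl1, which restrains translation of Irf7, was at 0.03 with an interval from -0.27 to 0.33. Oasl2, an oligoadenylate synthetase-like protein, read 7.41, 7.86 and 7.27 in WT and 6, 3.36 and 8.34 in KO. No other member was so spread: its KO SD was 2.49 against 0.31 in WT, and its difference, -1.61 ± 1.11, is not distinguishable from 0 (limma adjusted p = 0.462).

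Among the IFIT genes, whose proteins bind foreign RNA ends, Ifit1 read 9.79, 10.04 and 9.96 in WT and 9.95, 9.57 and 10.60 in KO. The KO values spanned the WT values, at 0.11 ± 0.25. Ifit2 was at 0.06 (interval -0.28 to 0.39) and Ifit3 at -0.41 (interval -0.85 to 0.03), and both overlapped. The dynamin-like GTPase gene Mx1 read 7.75, 7.41 and 7.33 in WT and 7.14, 6.65 and 7.18 in KO. Its groups were apart, at -0.51 ± 0.19 (limma adjusted p = 0.211), and -0.34 without KO 548. Mx2 was at 0.08, on a probe set with means of 4.57 in WT and 4.65 in KO, close to the 25th percentile of the arrays. Bst2, the tether that holds budding virions, was at -0.27, Samd9l, a translation inhibitor, at -0.11, and the guanylate-binding protein genes Gbp2 and Gbp3 at -0.58 and -0.14. Ifitm3, which blocks viral entry by fusion, read 12.09, 11.80 and 11.92 in WT and 11.81, 11.79 and 11.83 in KO, an overlap, at -0.13 ± 0.11, and -0.05 without WT 497. Of the 16 antiviral effectors 11 had lower means in KO, where 56.2% of all genes did, and 5 higher. The groups overlapped for 13. They were apart with KO below for 2 and above for 1, where 16.2% and 12.5% of all genes were.

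Of the remaining genes, Tap1, a subunit of the peptide transporter for MHC class I, read 8.62, 8.13 and 8.34 in WT and 7.87, 7.85 and 7.92 in KO. The KO mice were within 0.07 of one another and under every WT mouse, at -0.48 ± 0.14 (limma adjusted p = 0.155). Its other probe sets, at 0.11, 0.06 and -0.77, had signals under the array medians and did not share a direction. Cxcl10, a chemokine for T cells, was at -0.34 with an interval from -0.76 to 0.07. Several genes lay close to 0 with narrow intervals. Dtx3l, a ubiquitin ligase that pairs with PARP9, was at 0.02 (interval -0.22 to 0.26), and Ifi35, a leucine zipper protein, at 0.03 (interval -0.21 to 0.28). Parp9 was at -0.18 and Parp14, an ADP-ribosyltransferase, at 0.13. Lgals3bp, a secreted galectin-binding glycoprotein, was at 0.20 (interval -0.23 to 0.64) and Rtp4 at 0.08 (interval -0.81 to 0.97), where the 3 mice of each genotype were widely spread.

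The genes also differed among KO mice, and KO 551 was most often the highest. It had the highest KO value for 28 of 35 genes, which is 80% against 35.1% of all genes, while KO 493 was highest for 3 and KO 548 for 4. This pattern was picked out after the values were seen and carries no test. The gap between KO 551 and the mean of the other KO mice had a median of 0.22 over the genes, against 0.02 over all genes. It was 3.66 for Oasl2, 0.92 for Oas1a and for Gbp3, 0.90 for Rtp4, 0.85 for Oas2 and 0.84 for Ifit1. It was smallest for Rsad2, Stat2, Cxcl10 and Irf1, from -0.02 to -0.09, along with Mx2 at 0. In WT the highest mouse was more evenly shared, WT 497 for 12 genes, WT 504 for 13 and WT 550 for 10. On the marker sums KO 551 was the lowest KO mouse for macrophage markers (8680), the middle one for monocyte (7020) and neutrophil markers (47900), and the highest for T and NK cell (1300) and plasmacytoid dendritic cell markers (2430), and its actin end difference was the largest, 1.86. Their part in the pattern was not tested. KO 551 was singled out as the highest KO mouse, so leaving it out lowers the KO mean of most of these genes by construction. The shares of all genes do not carry that selection, so the counts that follow are descriptions only. Without KO 551, the difference was below 0 for 30 of 35 genes, against 56.5% of all genes. In that fit 12 genes had an unadjusted p under 0.05 and lower values, against 9.88% of all genes. No gene was higher with an unadjusted p under 0.05 in that fit, against 5.72% of all genes, and limma called 0 after adjustment, against 0.0715%.

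**Figure D4:**
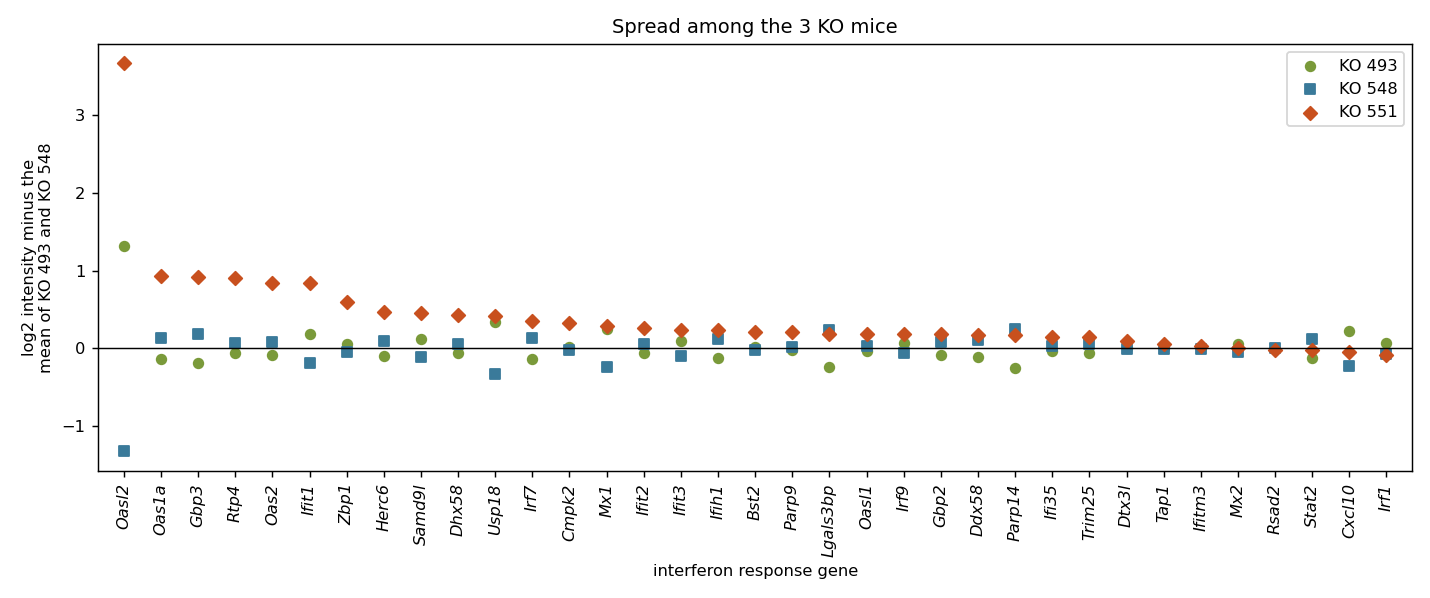
Log2 intensity of each KO mouse minus the mean of KO 493 and KO 548 (vertical axis) for the 35 genes (horizontal axis, in order of the value of KO 551). The diamonds of KO 551 lie above 0 for most genes, reach 3.66 for Oasl2 and fall to -0.09 for Irf1.

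Promoters were searched because interferon signals reach their target genes through short DNA elements. Of the 37 listed genes 28 had a RefSeq promoter entry, and the 250 bases before each start were read. The ISRE core, GAAA and GAAA with any 2 bases between them, on either strand, stood in 10 of the 28 (35.7%), against 3.46% of 27025 genes and 2.98% of all windows of that length. The GAS core, TTC and GAA with any 3 bases between them, which reads the same on both strands, stood in 4 of 28 (14.3%), against 8.13% of genes and 7.02% of windows. The 10 with an ISRE core were Isg15, Stat2, Rsad2, Oas1a, Ifit1, Ifit3, Bst2, Gbp2, Gbp3 and Cxcl10, and the 4 with a GAS core were Irf1, Ifit2, Oas1a and Bst2. Sequences follow for 5 genes that were described with values in every mouse, 3 with KO below WT, 1 with KO above and 1 with overlap. They are RefSeq's on build GRCm38.p6, 5′ to 3′ along the gene and ending at the base before the start, with both motifs in capitals.
Stat2, KO below WT, chr10:128270248-128270497, plus strand: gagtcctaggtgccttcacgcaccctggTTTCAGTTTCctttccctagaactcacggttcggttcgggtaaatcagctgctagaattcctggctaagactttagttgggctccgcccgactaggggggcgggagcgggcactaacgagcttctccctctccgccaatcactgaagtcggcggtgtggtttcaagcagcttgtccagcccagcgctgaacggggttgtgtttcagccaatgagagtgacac
Irf1, KO below WT, chr11:53769764-53770013, plus strand: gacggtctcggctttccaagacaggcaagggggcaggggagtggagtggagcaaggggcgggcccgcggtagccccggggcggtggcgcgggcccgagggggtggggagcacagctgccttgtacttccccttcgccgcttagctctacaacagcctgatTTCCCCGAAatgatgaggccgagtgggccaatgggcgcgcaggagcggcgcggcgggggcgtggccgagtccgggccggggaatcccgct
Rsad2, KO below WT, chr12:26456453-26456702, minus strand: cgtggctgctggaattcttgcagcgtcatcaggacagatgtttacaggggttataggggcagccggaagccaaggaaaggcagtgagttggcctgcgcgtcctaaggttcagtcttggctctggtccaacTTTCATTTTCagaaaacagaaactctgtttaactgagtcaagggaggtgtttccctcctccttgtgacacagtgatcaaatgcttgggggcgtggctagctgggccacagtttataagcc
Oas1a, KO above WT, chr5:120907526-120907775, minus strand: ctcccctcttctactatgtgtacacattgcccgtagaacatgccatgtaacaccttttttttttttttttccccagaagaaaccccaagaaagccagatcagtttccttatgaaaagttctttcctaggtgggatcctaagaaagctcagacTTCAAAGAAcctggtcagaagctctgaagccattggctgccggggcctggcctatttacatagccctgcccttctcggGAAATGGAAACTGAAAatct
Ifit1, groups overlap, chr19:34640639-34640888, plus strand: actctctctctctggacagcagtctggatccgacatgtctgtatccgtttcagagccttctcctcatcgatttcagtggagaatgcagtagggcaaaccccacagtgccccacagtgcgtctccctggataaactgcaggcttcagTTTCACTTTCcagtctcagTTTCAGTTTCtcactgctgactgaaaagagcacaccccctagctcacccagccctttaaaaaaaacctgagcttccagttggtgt
The match ended 213 bases before the start in Stat2, 111 in Rsad2 and 82 in Irf1, where it is a GAS core. In Oas1a there were 2 overlapping ISRE cores, ending 11 and 5 bases before the start, and a GAS core ending 90 bases before it. Ifit1 had 2 ISRE cores, ending 95 and 76 bases before the start. Genes with an ISRE core thus included members whose KO values lay below, above and overlapping the WT values, and a match in this window is a description of letters, not of binding.

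The rest of the pathway was read from lists of genes outside the 37, against the same backgrounds. Of all genes, 12.7% were lower and 8.34% higher with an unadjusted p under 0.05, and limma called 0.385% in either direction. The intensity trend called 2.04% of all genes lower and 2.37% higher. Among 10 interferon genes themselves limma called 0, and 1 had an unadjusted p under 0.05. The signals lay under the array medians, except for Ifnz, which read 4.67 to 6.05. Ifnb1, interferon beta, read 3.58, 3.61 and 3.85 in WT and 3.84, 4.24 and 4.25 in KO, under the 25th percentile of every array and overlapping. Ifnab, an interferon alpha family gene, was at -0.30 ± 0.16 at a like signal. Among 18 other genes of receptors, kinases and brakes limma called 0, and 5, all lower, had p under 0.05 before adjustment. The intensity trend called 2 of the 5, Ube2l6, above, and Ifngr1, the ligand-binding chain of the interferon gamma receptor, which read 9.39, 9.16 and 9.28 in WT and 8.60, 8.63 and 8.71 in KO. Its groups were apart, at -0.63 ± 0.11 (limma adjusted p = 0.07; 0.0211 with the intensity trend). The type I receptor chain Ifnar2 was at -0.34 ± 0.12 and its partner Ifnar1 at -0.08 ± 0.16.

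Sensing genes upstream of interferon had 22 measured members, of which limma called 0. An unadjusted p under 0.05 was found for 2 higher and 4 lower, against 8.34% and 12.7% of all genes. The intensity trend called Mavs, higher, and Ikbke, lower, where it called 2.37% of all genes higher and 2.04% lower. Mavs, the mitochondrial adaptor of MDA5 and RIG-I, read 9.73, 9.44 and 9.54 in WT and 10.16, 10.52 and 10.43 in KO. The KO values were all higher, at 0.80 ± 0.14 (limma adjusted p = 0.072; 0.0107 with the intensity trend). Its dimmer probe set gave 0.95 (limma adjusted p = 0.0555). Ikbke, a kinase that phosphorylates IRF3 and IRF7, read 7.39, 6.46 and 6.89 in WT and 5.72, 6.06 and 5.94 in KO (-1.01 ± 0.24, limma adjusted p = 0.114; 0.0462 with the intensity trend), so its groups were apart in the other direction. Among 69 further interferon-stimulated genes limma called 3, 2 higher and 1 lower, against 0.236% and 0.148% of all genes. Before adjustment 19 were lower and 4 higher with p under 0.05, against 12.7% and 8.34% of all genes. The median difference was -0.25, against -0.04 over all genes. The 3 called genes lie on chromosome 11. They are the immunity-related GTPases Irgm2 (2.95 ± 0.16, limma adjusted p = 0.0042) and Igtp (1.33 ± 0.13, limma adjusted p = 0.023), and Xaf1, whose 2 probe sets gave -3.26 and 4.23 and so no direction. Igtp read 10.73, 10.81 and 10.69 in WT and 12.11, 11.85 and 12.26 in KO. Among 10 class II and other interferon gamma genes limma called 0, as did the intensity trend. Before adjustment 5, all lower, had p under 0.05, against 12.7% of all genes, beside the lower B cell and macrophage marker sums. The smallest p values belonged to the MHC class II genes H2-Ab1 (-0.72 ± 0.22, limma adjusted p = 0.162) and H2-DMa (-0.92 ± 0.31, limma adjusted p = 0.184).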

How the data were processed

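Sorted erythroblast RNA of 3 KO and 3 WT mice was measured on 1 array each. The authors deposited linear probe-set intensity values made with RMA (version not given), per the submitters' processing notes; the lowest value was 1, and 100% of values were 2 raised to an exponent of 2 decimals. RMA makes the arrays' distributions alike, which can hide a change common to most transcripts. That exponent (log2) was used with no further normalization. The table held 45101 probe sets; 64 controls were left out. Names came from GEO's platform annotation, where 932 probe sets had several genes and 9160 tested ones had none. Of 37 listed genes 35 matched. For Gbp2 the linear mean would choose its other probe set, also at -0.58.

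Each probe set was tested for genotype alone with limma 3.58.1 (R 4.3.3; lmFit, eBayes). Adjusted p follows Benjamini and Hochberg over 45037 probe sets, with a threshold of 0.05; the code was checked on simulated data. Errors are moderated standard errors and intervals are 95%. The number of arrays limits precision. The members and lists were chosen with earlier results of these data known, so list counts are descriptions. The genes given in full are the members called, up to 10 per direction with an unadjusted p under 0.05, the 5 brightest, and the regulators, sensors and ISG15 genes; from the pathway lists, called genes and the 2 smallest p per list. Other genes named were chosen after their values were seen. Alternatives were an intensity trend with robust prior, quantile and cyclic loess normalization, the brighter probe sets only, a pseudocount of 16, other choices of probe set, and leaving out each mouse.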

Additional observations from a re-analysis of the deposited data

How the results depend on the processing

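Under the 7 planned settings with all 6 mice, 0 members were called higher, and 0 lower except with the intensity trend and robust prior, which called 2, where it called 4.42% of all genes in either direction. Leaving out 1 mouse called 0 in either direction. The number lower with an unadjusted p under 0.05 ran from 4 without KO 548 (9.2% of all genes) to 12 without KO 551 (9.88%). It was 5 without WT 497 (9.06%). The cause beyond the smaller number of mice was not tested. The number higher ran from 0 without KO 551 (5.72%) to 2, and was 1 without WT 550 (6.83%). With all 6 mice the other settings gave 7 to 12 lower, the 12 with the intensity trend, and 2 higher. The share of all genes at that threshold is not given for those settings, so these counts cannot be weighed against it. The median difference ran from -0.34 without KO 551 to -0.15 without KO 493. Of 17 named members only Dtx3l and Ifi35, both near 0, changed sign: Dtx3l was at -0.03 as the mean of its probe sets and -0.02 to 0.06 without 1 mouse, and Ifi35 at -0.0033 when _x_at and _s_at probe sets were dropped and -0.02 to 0.08 without 1 mouse. No paired analysis was possible because no title number occurs in both groups.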

Other observations

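Some interferon-stimulated genes outside the list had KO 551 far from the other KO mice and near WT. They were picked after their values were seen and carry no test. Trim12a, a member of the TRIM family on chromosome 7, read 8.94, 8.56 and 8.44 in WT, 3.26 in KO 493, 3.22 in KO 548 and 8.94 in KO 551. KO 493 and KO 548 were under the 25th percentile of their arrays, while KO 551 was within the WT range. Its other probe set read 5.85, 5.96 and 6.09 in WT and 5.81, 5.64 and 5.90 in KO, with no such gap. Trim30d, also on chromosome 7, read 7.60, 7.14 and 6.65 in WT and 4.20, 4.08 and 6.71 in KO, and its other probe set had the same order of KO mice, at 3.85, 3.62 and 4.58. Trim34a, on chromosome 7 too, read 8.52, 8.46 and 8.57 in WT and 4.75, 4.95 and 8.74 in KO on its dimmer probe set. Its brighter one read 10.92, 10.80 and 10.93 in KO, with no such gap. On the same chromosome, the dimmer probe set of Trim30a read 5.45, 5.43 and 7.16 in KO. The brighter one of Trim21, there as well, read 9.58, 9.53 and 10.24 in KO. Its dimmer one read 6.90, 6.97 and 6.86 in KO, with no such gap. Oasl2, with KO values of 6, 3.36 and 8.34, lies on chromosome 5, as do Oas1a and Oas2. Of the other members with a KO 551 gap of 0.84 or more, Gbp3 lies on chromosome 3, Rtp4 on 16 and Ifit1 on 19. Whether the pattern belongs to any chromosome or to the interferon response was not tested. Over the 69 further interferon-stimulated genes KO 551 was the highest KO mouse for 35, or 50.7%, against 35.1% of all genes.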
